A study of Mus musculus with 8 samples.

Results

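Sufu lies on mouse chromosome 19, and 10 genes listed as its neighbours there (Psd, Tmem180, Actr1a, Trim8, Arl3, Sfxn2, Wbp1l, As3mt, Cnnm2 and Nt5c2) were followed in the newborn cerebellum of Sufu mutants, out of 24062 genes counted. The list was given by gene symbol, and it was chosen with earlier results of these data known. All 10 had counts in every library, between 114 and 8065 per gene and library, and all 10 passed the filter on low counts that left 15789 genes for the test. The exon bin tables, which count reads over consecutive pieces of each gene's exons, held 108 bins of these genes, of which 103 passed the same kind of filter. The comparison asks whether the Sufu alleles came with altered levels of nearby genes.

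Mutant pups were Math1-Cre; Sufu flox/-, that is, they had 1 floxed and 1 null copy of Sufu besides the Cre transgene. Control pups were Sufu flox/+, with a wild-type copy in place of the null one. Whole cerebella were taken individually at postnatal day 2 from 4 mutant and 4 control pups on a mixed C57BL/6 background, and polyA RNA was sequenced. In the mating described in the labels, 1 parent was Math1-Cre; Sufu +/- and the other was homozygous for the floxed Sufu allele and for Math1 mgfp. Every pup of both groups therefore inherited a floxed Sufu allele and a Math1 mgfp allele. The labels do not say if control pups had the Cre transgene. The Math1 promoter drives Cre in the precursors of granule neurons and in some other neurons of the hindbrain, so only part of the tissue could recombine the floxed allele, while the null allele was in every mutant cell. The null allele is inherited together with the chromosome around it, so an effect of the allele and a difference in the linked chromosome cannot be told apart in this design. In whole tissue, fewer cells of a type and less RNA per cell cannot be told apart either.

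Sufu encodes a protein that holds Gli transcription factors back and so keeps the Hedgehog pathway off, and loss of it in granule neuron precursors is a known route to altered cerebellar growth. Its neighbours belong to several gene families and lie close enough that a deletion, an inserted cassette or a shared regulatory sequence at one gene can in principle reach the next, which is why neighbours are often checked in engineered alleles. The human counterparts of As3mt, Cnnm2 and Nt5c2 lie together in a region known from association studies of schizophrenia.

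Depth and tissue make-up set the frame. The 8 libraries held 21479565 to 26638284 reads assigned to genes. Levels are given as CPM, the count of a gene scaled to a common library size. Granule precursor markers summed to 1508 to 2737 CPM in mutants and 1436 to 1717 CPM in controls, and Purkinje cell markers to 918 to 1359 CPM and 746 to 1130 CPM, so the labelled tissue was present in all 8 libraries. The libraries also differed in adjacent tissue. The 15 Hox genes that mark the hindbrain behind the cerebellum summed to 179, 64.2, 98.3 and 7.06 CPM in mutants 1 to 4, against 119 to 218 CPM in controls, with Hoxb7 at 0 in some libraries. The sum of 9 markers of maturing neurons was 5140, 4627, 3891 and 3158 CPM in mutants 1 to 4 and 5080 to 5680 CPM in controls, and all 9 had lower means in mutants. Mutant 4 was the lowest library on both sums. Choroid plexus markers summed to 3906 to 6564 CPM in mutants and 1570 to 3609 CPM in controls, and oligodendrocyte lineage markers to 647 to 1254 CPM and 1255 to 1886 CPM. Markers of dividing cells summed to 957 to 1677 CPM in mutants and 784 to 905 CPM in controls, and all 8 had higher means in mutants.

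Of the 10 neighbours, none passed the test between mutants and controls, and the median size of their differences was close to that over all genes tested. Over all 15789 genes the edgeR quasi-likelihood test with Benjamini-Hochberg adjustment called 0% at an adjusted p of 0.05, and the smallest adjusted p among the 10 was 0.381. At an unadjusted p up to 0.05 there were 3 of the 10, namely Psd, Tmem180 and Sfxn2, against 12.6% of all genes tested. Of these, Sfxn2 was higher, as were 6.94% of all genes, and Psd and Tmem180 were lower, as were 5.7%. DESeq2 likewise called 0 of the 10, while it called 0.333% of the genes to which it gave an adjusted p. At an unadjusted p up to 0.05 it had 3 of the 10, against 10.7% of all genes. The mean was lower in mutants for 6 of the 10 and higher for 4, with a median log2 fold change of -0.08, against 0.01 over all genes tested. For 7 of the 10 the log2 fold change was under 0.2 in size. Its median size was 0.148 for the 10 and 0.150 over all genes tested. The groups did not overlap for 2 of the 10, Psd and Sfxn2, and such genes made up 6.57% of all genes tested, 3.6% with all mutants higher and 2.96% with all mutants lower.

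**Figure D1:**
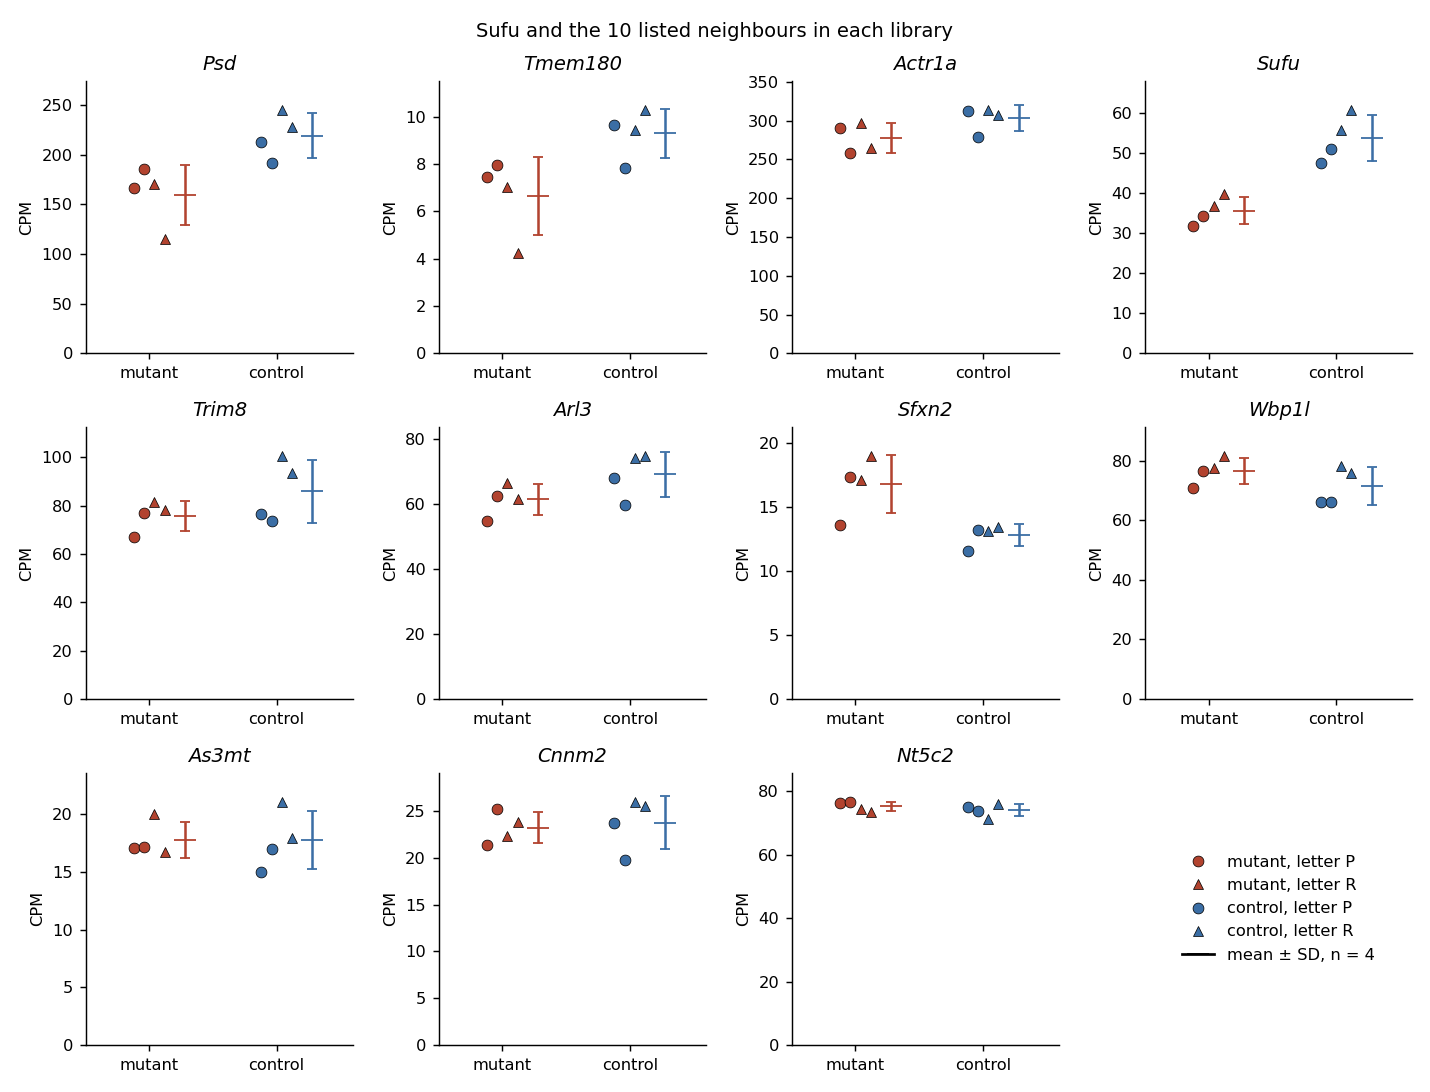
Level in CPM (vertical axes, from 0) of Sufu and its 10 listed neighbours in each mutant (left, red) and control (right, blue) library, with circles for title letter P, triangles for R, and bars for mean ± SD (n = 4). Mutants and controls are separate for Sufu, Psd and Sfxn2 and overlap for the other 8 genes.

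Sufu itself, the gene that carries the alleles, serves as a yardstick at the level of whole-gene counts. It stood at 31.7, 34.4, 36.8 and 39.8 CPM in mutants 1 to 4, against 47.7, 51.0, 55.9 and 60.7 CPM in controls 1 to 4. Every mutant was below every control, and the log2 fold change was -0.59 (SE 0.11), with an edgeR adjusted p of 0.381 and a DESeq2 adjusted p of 0.00115, so that the call for Sufu depended on the tool. None of the 10 listed neighbours had a log2 fold change that far below 0 over all 8 libraries. Intervals of 2 SE on either side nevertheless included -0.59 for Psd (-0.75 to -0.17) and Tmem180 (-0.87 to -0.10). Those of the other listed genes did not. Single exon bins of Sufu ran from -1.42 to -0.47 with a median of -0.99, so this comparison depends on the use of whole-gene counts.

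The 3 listed genes before Sufu in the chromosome's gene order, Psd, Tmem180 and Actr1a, all had lower means in mutants. Psd, on the minus strand, encodes an exchange factor that activates the small GTPase Arf6 and is made mainly in neurons. Its level was 167, 185, 170 and 115 CPM in mutants 1 to 4, against 213, 191, 245 and 228 CPM in controls 1 to 4. All mutants lay below all controls, with mutant 4 well under the rest and mutant 2 only just under control 2. The means were 159 ± 30.5 CPM in mutants and 219 ± 22.7 CPM in controls (SD, n = 4 each), a log2 fold change of -0.46 (SE 0.15) with an edgeR adjusted p of 0.381.

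Tmem180, known in RefSeq as Mfsd13a, is on the plus strand and encodes a membrane protein related to the major facilitator transporters. It had the fewest reads of the 10 in all 8 libraries. Its level was 7.44, 7.95, 7.03 and 4.24 CPM in mutants 1 to 4, against 9.64, 7.84, 9.46 and 10.3 CPM in controls 1 to 4. Control 2 lay between mutants 1 and 2, so the groups overlapped, and mutant 4 was again the lowest. The log2 fold change was -0.48 (SE 0.19) with an edgeR adjusted p of 0.387.

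Psd and Tmem180 had the largest negative log2 fold changes of the 10, and both were lowest in mutant 4. That library was also the lowest for the Hox genes (7.06 CPM), for maturing neuron markers (3158 CPM) and for oligodendrocyte lineage markers (647 CPM). It was the highest for granule precursor markers (2737 CPM), dividing cell markers (1677 CPM) and Purkinje cell markers (1359 CPM), so neuron markers went both ways in it. Without mutant 4 the log2 fold changes were -0.34 for Psd and -0.32 for Tmem180. With the mean Hox level as a covariate they were -0.25 and -0.21, and under that covariate 2.27% of all genes had an unadjusted p up to 0.05. The part of these cell types in the differences was not tested.

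Actr1a is the gene next to Sufu on that side and encodes the actin-related protein that forms the filament of dynactin, the cofactor of the dynein motor. It lies head to head with Sufu, on the minus strand, and in RefSeq on the GRCm38.p6 build 1154 bases separate the 2 transcription starts. Its level was 291, 258, 297 and 265 CPM in mutants 1 to 4, against 312, 278, 313 and 308 CPM in controls 1 to 4. The groups overlapped, and the log2 fold change was -0.13 (SE 0.09) with an edgeR adjusted p of 0.545. An interval of 2 SE on either side ran from -0.31 to 0.06, and that of Sufu ran from -0.81 to -0.38. There were 10.9, 13.3, 12.4 and 15.0 Sufu reads per 100 Actr1a reads in mutants 1 to 4, against 15.3, 18.3, 17.8 and 19.7 in controls 1 to 4. Mutants were below controls throughout, so the Sufu level was lower relative to its head-to-head neighbour as well.

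The stretches upstream of the Sufu and Actr1a starts are shown because they face each other across the gap between the genes. They are from RefSeq on GRCm38.p6, a later build than that of the counts, and each is 250 bases long, read 5′ to 3′ towards its own gene. Capitals mark the GC box GGGCGG and the CCAAT box CCAAT, searched on both strands. The Sufu stretch is chr19:46396646-46396895 on the plus strand and the Actr1a stretch is chr19:46395742-46395991 on the minus strand.
Sufu: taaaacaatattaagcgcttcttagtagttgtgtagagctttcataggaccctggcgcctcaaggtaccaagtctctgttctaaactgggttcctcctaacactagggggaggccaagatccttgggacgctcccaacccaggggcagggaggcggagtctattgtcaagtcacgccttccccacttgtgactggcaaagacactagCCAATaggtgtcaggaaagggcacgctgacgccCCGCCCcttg
Actr1a: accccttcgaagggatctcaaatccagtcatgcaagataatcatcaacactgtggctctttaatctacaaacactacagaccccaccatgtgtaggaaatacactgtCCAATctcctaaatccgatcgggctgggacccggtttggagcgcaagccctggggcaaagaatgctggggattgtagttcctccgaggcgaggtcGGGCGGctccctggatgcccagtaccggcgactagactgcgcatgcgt
Each held 1 GC box and 1 CCAAT box, motifs found in 32.7% and 33.8% of all 32851 RefSeq stretches of that length. The letters GACCACCCA, a motif bound by Gli factors, were in neither, on either strand. In the full promoter windows of RefSeq, 300 bases each, they were in 0 of 17 windows of the listed genes, which covered 9 of the 10 (all but Trim8), and in 0.253% of all windows.

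On the other side, Trim8 follows Sufu on the same strand and encodes a RING-finger ubiquitin ligase. Its level was 67.0, 76.9, 81.4 and 78.2 CPM in mutants 1 to 4, against 76.7, 73.5, 101 and 93.4 CPM in controls 1 to 4. The groups overlapped because controls 1 and 2 were as low as the mutants. The log2 fold change was -0.18 (SE 0.12) with an edgeR adjusted p of 0.497.

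Arl3 and Sfxn2 come next and start back to back, with 182 bases between their starts in RefSeq on GRCm38.p6, so that their promoter windows overlap. Their means in mutants lay on opposite sides of those in controls. Arl3, on the minus strand, encodes a small GTPase that releases lipid-modified proteins into the primary cilium, the organelle through which Hedgehog signals pass in vertebrates. Its level was 54.8, 62.5, 66.4 and 61.5 CPM in mutants 1 to 4, against 67.9, 59.5, 73.9 and 74.6 CPM in controls 1 to 4. Control 2 was under 3 of the mutants, and the log2 fold change was -0.17 (SE 0.10) with an edgeR adjusted p of 0.462.

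Sfxn2, on the plus strand, encodes a sideroflexin, one of a family of mitochondrial membrane proteins. Its level was 13.6, 17.4, 17.1 and 18.99 CPM in mutants 1 to 4, against 11.5, 13.2, 13.2 and 13.4 CPM in controls 1 to 4. All mutants were above all controls, although mutant 1 was above control 4 only narrowly. The means were 16.8 ± 2.27 CPM in mutants and 12.8 ± 0.87 CPM in controls (SD, n = 4 each), a log2 fold change of 0.39 (SE 0.13) with an edgeR adjusted p of 0.381. Sfxn2 was highest in mutant 4, the library where Psd and Tmem180 were lowest; its log2 fold change was 0.32 without it and 0.26 with the Hox covariate.

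The stretch between the Arl3 and Sfxn2 starts is shown because 1 short sequence lies upstream of both genes. It is chr19:46573183-46573364 on GRCm38.p6, from RefSeq, read on the plus strand towards Sfxn2, with GC boxes and CCAAT boxes in capitals as above.
Arl3 to Sfxn2: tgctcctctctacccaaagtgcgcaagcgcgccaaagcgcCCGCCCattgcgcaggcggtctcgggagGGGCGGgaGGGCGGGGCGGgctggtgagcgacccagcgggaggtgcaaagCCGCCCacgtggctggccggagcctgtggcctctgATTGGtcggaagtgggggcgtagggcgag
It is 72.0% G and C and holds 19 CpG pairs, 5 GC boxes, of which 2 overlap each other, and 1 CCAAT box. At least 1 GC box was in 30.3% and at least 1 CCAAT box in 27.6% of all stretches of that length upstream of RefSeq starts. The share with several GC boxes was not counted, so these shares do not show if 5 is unusual.

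Read counts of the pair can be set against each other within a library, which needs no scaling between libraries. There were 24.8, 27.8, 25.8 and 30.9 Sfxn2 reads per 100 Arl3 reads in mutants 1 to 4, against 17.0, 22.2, 17.8 and 18.0 in controls 1 to 4. All mutants were above all controls, with means of 27.3 ± 2.66 in mutants and 18.8 ± 2.35 in controls (SD, n = 4 each). The mean ratio was 1.46 times that of controls, between 1.39 and 1.55 times when any 1 library was left out, 1.34 times within title letter P and 1.58 times within R. This ratio was chosen after its values were seen and was given no test. Among 720 pairs of tested genes whose starts face away from each other with overlapping promoter windows, the ratio did not overlap between groups in 8.19%, and in 8.08% of all pairs of genes next to each other. The difference between the log2 fold changes of Sfxn2 and Arl3 was 0.56, a size exceeded by 22 of the 720 pairs, where the median was 0.17. Opposite directions as such were common, at 46.7% of those pairs.

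**Figure D2:**
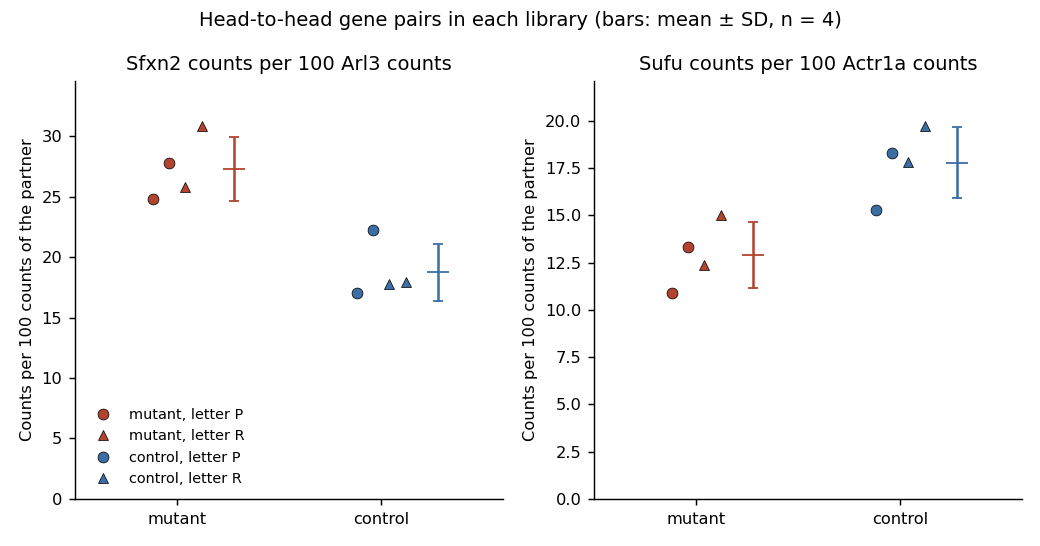
Counts of Sfxn2 per 100 counts of Arl3 (left panel) and of Sufu per 100 counts of Actr1a (right panel) in each mutant (left, red) and control (right, blue) library, with circles for title letter P, triangles for R, and bars for mean ± SD (n = 4). The Sfxn2 ratio is 24.8 or more in mutants and 22.2 or less in controls, and the Sufu ratio is 15.0 or less in mutants and 15.3 or more in controls.

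The last 4 listed genes showed the smallest differences. Wbp1l, which encodes a membrane adaptor that binds WW domains, ranged from 70.9 to 81.5 CPM in mutants and from 66.1 to 78.1 CPM in controls, with a log2 fold change of 0.10 (SE 0.09) and an edgeR adjusted p of 0.628. As3mt, the arsenic methyltransferase, ranged from 16.7 to 20.0 CPM and from 15.0 to 21.1 CPM, with a log2 fold change of 0.0013 (SE 0.13). Cnnm2, a membrane protein of magnesium handling, ranged from 21.4 to 25.3 CPM in mutants and from 19.8 to 26.0 CPM in controls, with a log2 fold change of -0.03 (SE 0.11). Nt5c2, a cytosolic nucleotidase, was the steadiest of the 10, at 73.5 to 76.7 CPM in mutants and 71.4 to 76.0 CPM in controls, and its log2 fold change was 0.02 (SE 0.07). Intervals of 2 SE on either side ran from -0.25 to 0.25 for As3mt, -0.26 to 0.20 for Cnnm2 and -0.13 to 0.17 for Nt5c2. For these 3 genes the sign changed with the setting: that of As3mt turned negative under DESeq2's size factors, and all 3 took opposite signs within title letters P and R.

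Each title letter, P or R, is shared by 2 mutants and 2 controls, without a stated meaning. The log2 fold change of Psd was -0.20 within P and -0.75 within R, and that of Tmem180 was -0.19 and -0.84. For Trim8 it was -0.07 and -0.31, and for Sfxn2 0.32 and 0.42. Wbp1l, at 0.15 and 0.02, and Nt5c2, at 0.03 and -0.02, were nearer to 0 within R. Within R, both mutants lay below both controls for 6 of the 10 genes and above them for 1, where 29.2% of all genes were below and 35.4% above. Within P they lay below for 1 and above for 4, where 23.2% of all genes were below and 23.1% above. At an unadjusted p up to 0.05 there were 5 of the 10 within R, where 30.2% of all genes were, and 0 of the 10 within P, where 13.9% were; after adjustment none of the 10 passed within either letter, where 0.00635% of all genes did for R and 0.0313% for P. None of the 10 passed the test of the difference between letters, which called 3.20% of all genes; Psd came closest (edgeR interaction adjusted p = 0.213, a difference of -0.53 with SE 0.23). Sufu differed little between letters, at -0.58 within P and -0.63 within R.

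**Figure D3:**
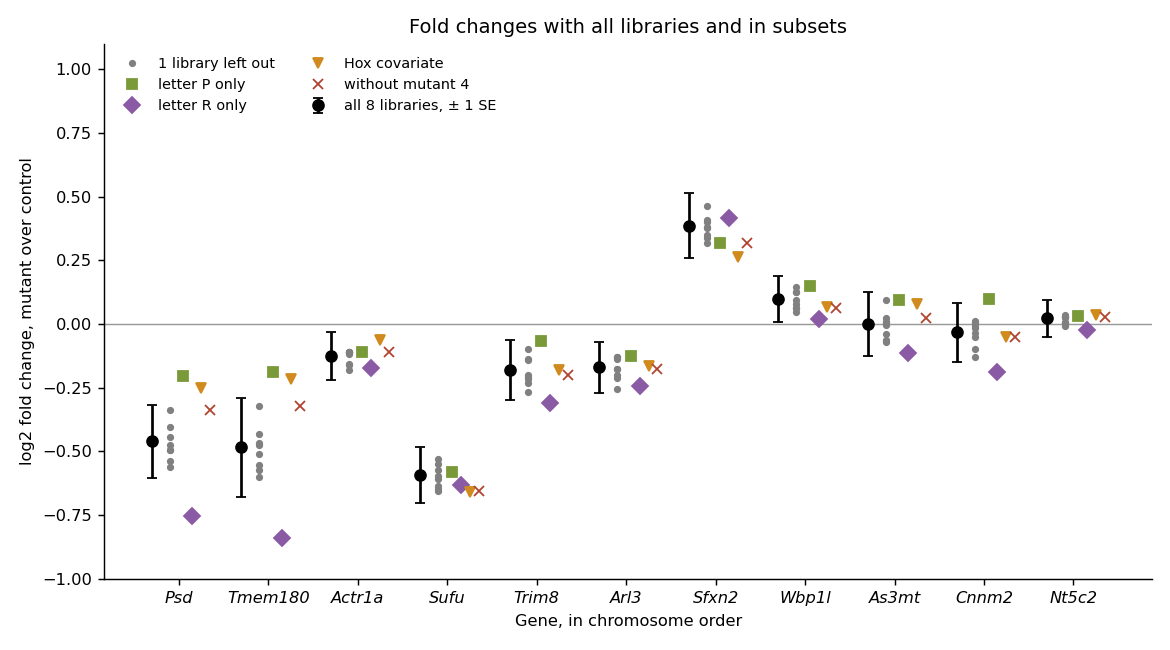
Log2 fold change of mutant over control (vertical axis) for Sufu and the 10 neighbours in chromosome order, with all 8 libraries (black, ± 1 SE), with 1 library left out (grey points), within title letter P or R, with the Hox covariate and without mutant 4. Sufu stays between -0.66 and -0.53, while Psd ranges from -0.75 to -0.20 and Tmem180 from -0.84 to -0.19.

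The exon bins of most neighbours lay on the same side as the gene counts, and no bin passed the test for use that differs from the rest of its gene. Of the 103 tested bins of the 10 genes, 73 had lower and 30 higher means in mutants, and 0 passed (edgeR adjusted p of at least 0.435), as did 0% of all 153897 bins. At an unadjusted p up to 0.05 there were 24 of the 103, in Psd, Sfxn2, Tmem180, Trim8 and Arl3, against 9.64% of all bins; bins of 1 gene share its reads and are not independent. For the use of a bin relative to the rest of its gene, 0 of the 10 genes passed by Simes' method (edgeR adjusted p = 1.0) and 0 of the 103 bins had an unadjusted p up to 0.05, against 0.339% of all bins. Over the genome, 0.00749% of genes and 0.0118% of bins passed the adjusted threshold for use. Sufu itself did not pass either. By the edgeR test of use, 6 of its 13 bins had an unadjusted p up to 0.05, and none passed after adjustment. The lack of calls among the neighbours therefore does not show that their exon use was unaltered.

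All 18 bins of Psd had lower means in mutants. Bins 1 to 8 had log2 fold changes of -0.63 to -0.43 and bins 9 to 18 of -0.36 to -0.18, a split chosen after the values were seen. Bin 1 stood at 27.5, 27.0, 27.5 and 16.2 CPM in mutants 1 to 4, against 37.1, 36.1, 40.8 and 38.2 CPM in controls 1 to 4. Its log2 fold change was -0.63 (SE 0.16), with an edgeR adjusted p of 0.435 over all bins.

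All 8 tested bins of Tmem180 had lower means, at -0.80 to -0.40, and all 12 bins of Sfxn2 had higher means, at 0.31 to 0.82. In Sfxn2 the smallest p was that of bin 6, at 0.90, 1.13, 1.11 and 0.93 CPM in mutants 1 to 4, against 0.51, 0.50, 0.55 and 0.75 CPM in controls 1 to 4. All bins of Actr1a (11), Trim8 (6) and Arl3 (6) had lower means, at -0.20 to -0.02, -0.29 to -0.19 and -0.28 to -0.13. The bins of As3mt and Nt5c2 went both ways, with 6 lower and 5 higher, and 11 lower and 7 higher; Cnnm2 had 7 lower and 1 higher, and all 5 tested bins of Wbp1l were higher. In Sufu all 13 bins were lower, from -1.42 to -0.47, with those of bins 4 to 9 the lowest. None of the 103 tested bins of the listed neighbours reached the median of the Sufu bins, -0.99. The ranges overlapped all the same. Sufu bins 12 and 13 were at -0.49 and -0.47, while Tmem180 bin 2 was at -0.80 and Psd bin 1 at -0.63.

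**Figure D4:**
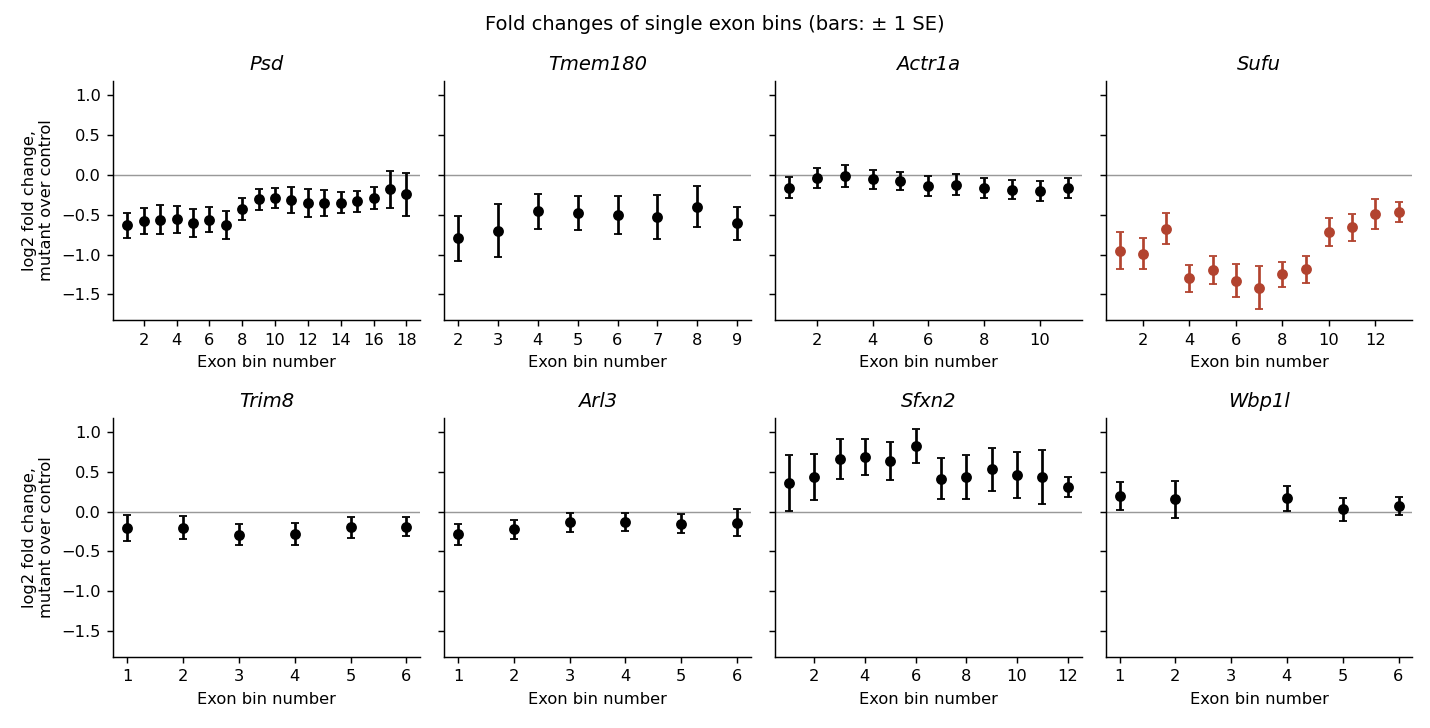
Log2 fold change of mutant over control (vertical axis, ± 1 SE) for each tested exon bin, in the bin order of the files (horizontal axis), for Sufu (red) and 7 of its neighbours (black). Sufu bins run from -1.42 to -0.47 with a trough at bins 4 to 9. Those of Psd run from -0.63 to -0.18 and those of Tmem180 from -0.80 to -0.40, so both overlap the Sufu range.

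The span from Psd to Nt5c2 holds 6 further genes in the count files, of which 4 were tested. Fbxl15 had a log2 fold change of -0.24 (SE 0.22), Cuedc2 of -0.10 (SE 0.10) and 2310034G01Rik of 0.0064 (SE 0.34). The fourth, 2010012O05Rik (Borcs7 in RefSeq, a subunit of a complex that positions lysosomes), lies between Wbp1l and As3mt. It stood at 19.03, 17.3, 16.7 and 13.5 CPM in mutants 1 to 4, against 19.7, 20.4, 20.0 and 22.2 CPM in controls 1 to 4. All mutants were below all controls, with mutant 4 lowest, and the log2 fold change was -0.31 (SE 0.12) with an edgeR adjusted p of 0.386.

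Over a wider stretch of 25 genes on either side of Sufu in RefSeq's gene order, 43 of 50 were tested. Of these, 19 had lower and 24 higher means, 0 passed, and 8 had an unadjusted p up to 0.05, against 12.6% of all genes tested. Their median log2 fold change was 0.02. On the side before Sufu, 6 of 21 had an unadjusted p up to 0.05 and 11 of 21 had lower means. On the side after it, these were 2 of 22 and 8 of 22. All these counts include the 10 listed genes. Without them 33 genes were tested, 13 with lower and 20 with higher means, and 5 (15.2%) had an unadjusted p up to 0.05. Kcnip2 was the only tested gene in the stretch with a log2 fold change below that of Sufu.

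**Figure D5:**
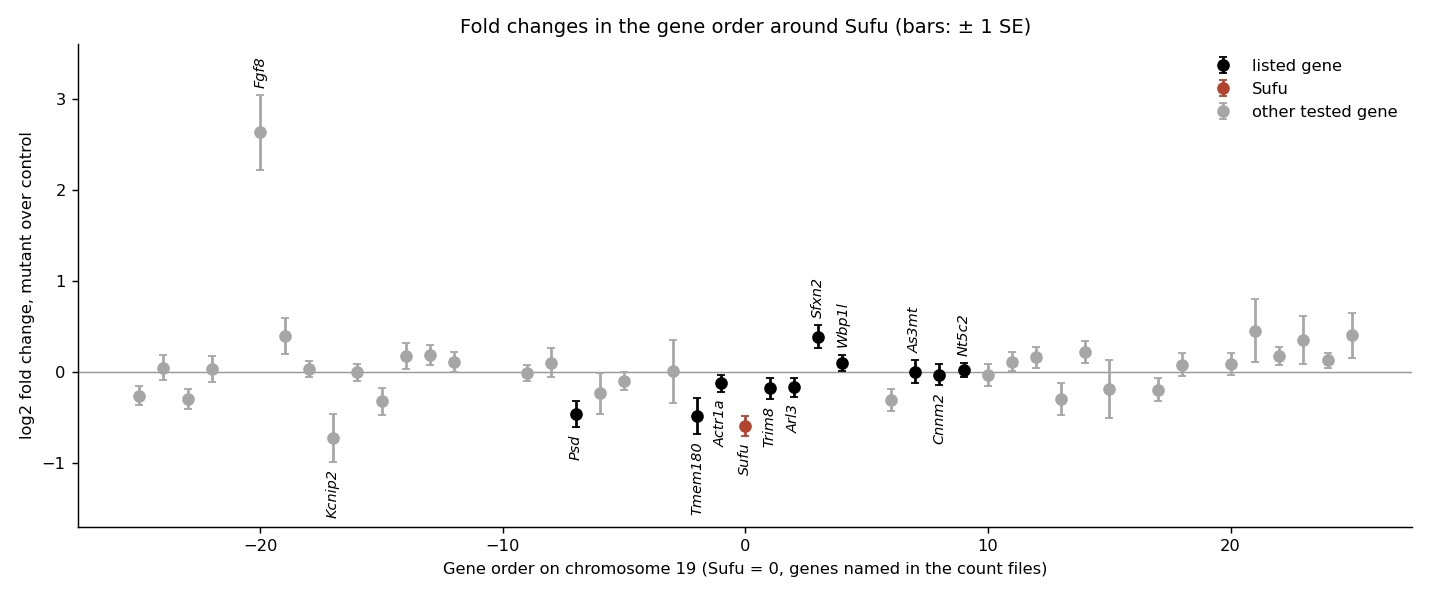
Log2 fold change of mutant over control (vertical axis, ± 1 SE) for the tested genes within 25 places of Sufu in the gene order of chromosome 19 (horizontal axis), with listed neighbours in black, Sufu in red and other genes in grey. Fgf8, 20 places before Sufu, lies at 2.63, and all other genes lie between -0.72 and 0.45.

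The stretch includes Fgf8, which encodes a signalling ligand made at the boundary of midbrain and hindbrain in the embryo, and sits 20 places before Sufu. It stood at 2.41, 5.59, 7.03 and 10.7 CPM in mutants 1 to 4, against 0.70, 1.33, 1.05 and 1.08 CPM in controls 1 to 4. Every mutant was above every control, and the log2 fold change was 2.63 (SE 0.41) with an edgeR adjusted p of 0.381, against 1.82e-07 with DESeq2 and 0.0137 without mutant 1. Its nearest tested neighbours did not share a difference of this size, with Npm3 at 0.39 (SE 0.20) and Fbxw4, chosen after its value was seen, at 0.03 (SE 0.14). Npm3 differed by title letter, at -0.06 (SE 0.13) within P and 0.70 (SE 0.09) within R, where Fgf8 was at 1.97 and 3.02. Kcnip2, a neuronal partner of Kv4 potassium channels 17 places before Sufu, stood at 12.6, 9.80, 8.97 and 4.39 CPM in mutants 1 to 4, against 13.3, 12.6, 17.8 and 15.2 CPM in controls 1 to 4. The groups did not overlap, though mutant 1 and control 2 were almost level, and mutant 4 was again lowest; the log2 fold change was -0.72 (SE 0.26). The other unlisted genes with the smallest p in the stretch were Dpcd at -0.30, Btrc at -0.26, Hps6 at -0.32 and Pdcd11 at 0.22.

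The libraries' pattern of Psd was shared by genes on other chromosomes and by further genes on chromosome 19. Chromosome 19 without Sufu held 535 of the 15789 genes tested. Over the 8 libraries the log2 CPM most like that of Psd was that of Ceacam16 on chromosome 7 (Pearson r 0.996), followed by March11 on chromosome 15, Rasgrp2 on chromosome 19, Tmem150c on chromosome 5 and Ankrd13d on chromosome 19 (r 0.989 to 0.993). For Sfxn2 the 5 most alike were Git2, Aplnr, Arid3a, Ezr and Eml3 (r 0.976 to 0.990), on chromosomes 5, 2, 10, 17 and 19. These values describe likeness across libraries that fall into the mutant and control groups and share their differences in make-up, and carry no test. None of these 10 genes is among the 25 on either side of Sufu. That stretch holds only 43 of the 15789 genes tested, so their absence from it carries no weight.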

How the data were processed

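Gene counts and exon bin counts were deposited by the authors for each of the 8 libraries as raw whole numbers, 1 table of each kind per library. Per the submitters' processing notes the tools were TopHat, HTSeq and DESeq2 (no versions) and the build was mm9. The annotation, strand setting and bin coordinates are not given, so reads of a gene and of one overlapping it on either strand may be mixed. The 5 summary lines of each gene table (24.8 to 34.3% of entries) and the 4 of each bin table were left out. edgeR 4.0.16 in R 4.3.3 was fitted to all genes or bins (filterByExpr, TMM scaling, robust quasi-likelihood F test, two-sided, genotype as the only term, Benjamini-Hochberg threshold 0.05); bin use was tested with diffSpliceDGE. The standard error is the log2 fold change over the root of F. As an alternative, DESeq2 1.42.0 was run. Gene order, names and promoter windows came from RefSeq on GRCm38.p6, matched by symbol or synonym on the same chromosome.

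The p-values rest on 4 separate pups a group, and the 4 libraries of a group all differed by more than counting noise (chi-square per degree of freedom of at least 7.42). Counts were simulated for mutants against controls, with 50 genes changed at each size. The gene test called 36% at 1.5-fold, 80% at 2-fold and 94% at 4-fold over 15677 genes, with 6.06% of calls false. For bins, only the bin with the highest mean was changed, in genes with at least 4 tested bins. At 2-fold the bin use test called 49% of those genes over 13251 genes, with 9.70% of calls false. The bin level test called 81% of those bins over 152637 bins, with 11.3% of calls false. The simulation drew each gene and bin independently, without the differences in make-up between the real libraries. On the real data the gene test called 0 of 15789 genes, so these shares can overstate what it would find there. The listed genes, the marker lists, the tests and the rule for naming genes were chosen with earlier results of these data known. The rule took all 10 genes, Sufu, the 8 unlisted genes of the wider stretch with the smallest p (Fgf8 among them), the 5 genes most like each of the 2 listed genes with the smallest p, and the top bins. The other genes of the span and Fbxw4 fall outside the rule and were picked with their values in view.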

Additional observations from a re-analysis of the deposited data

Results flagged for a closer look

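Among the 22 groups of 4 values for Sufu and the 10 neighbours, 3 held a library far from the other 3 by Dixon's criterion, where chance gives about 1 in 20. Mutant 3 was high for As3mt, at 20.0 CPM. Control 2 was low for Actr1a, at 278 CPM, and control 1 was low for Sfxn2, at 11.5 CPM.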

How the results depend on the processing

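Under 16 alternatives for each gene (other scalings, no filter, DESeq2, title letter as a block, a Hox covariate, single letters, each library left out) 0 of the 10 neighbours passed in any. Psd, Tmem180, Actr1a, Trim8, Arl3, Sfxn2 and Wbp1l kept their direction in all 16. As3mt turned to -0.0095 with DESeq2's size factors, -9.1e-04 without a filter, -0.0084 with DESeq2 and -0.11 within letter R; Cnnm2 turned to 0.10 and Npm3 to -0.063 within P, and Nt5c2 to -0.022 within R. With 1 library left out, As3mt ran from -0.071 to 0.094, Cnnm2 from -0.13 to 0.013 and Nt5c2 from -0.0078 to 0.035. The number of neighbours at an unadjusted p up to 0.05, 3 in all libraries, was 0 with the Hox covariate (2.27% of all genes), 0 within P (13.9%), 5 within R (30.2%) and 2 to 5 with 1 library left out (6.55% to 20.0%; 5 without control 2, where it was 13.3%); the cause was not tested. With 1 library left out, 0 to 1 genes of the wider stretch passed, the 1 being Fgf8 without mutant 1. The replicate numbers do not pair the samples, but the title letters gave a replicate block: with it 0 neighbours passed by gene, 0 in bin use and 0 genes of the wider stretch, and the adjusted p of Psd was 0.224. At this depth the interval of 2 SE for Tmem180, the gene with the fewest counts, was the widest of the 10, from -0.87 to -0.10.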
